A study of Danio rerio with 12 samples.

Results

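Brains of zebrafish carrying a miR-29 sponge (strain actb1::miR-29sponge) were compared with brains of wild type fish. The comparison rests on 8 of the 12 libraries of the series, 4 of each strain, chosen by the strain label alone. It covers the 19645 genes, of 32105 in the count table, that exceeded 0.5 CPM, a read count relative to the total of its library, in at least 4 of the 12 libraries. All fish were male and 6 months old, and bulk RNA sequencing of whole brain measured gene level read counts. The remaining 4 libraries come from fish of the strain kif5a::miR-29sponge and are used here only for the spread between libraries and for tests of the difference between the lines. What the groups share is sex, age and tissue, and the labels add no allele or treatment in wild type. The labels do not say whether libraries of a strain come from separate fish, whether the line goes back to 1 founder, or in which brain cells the sponge is made. The p-values below therefore measure the spread between libraries, which may be technical.

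A microRNA binds messenger RNAs through a short seed at its 5′ end and lowers their stability and translation. A sponge is a transcript with many binding sites for 1 microRNA family, which competes with the natural targets. The miR-29 family is abundant in the adult and ageing brain and is best known for restraining collagens and other extracellular matrix genes, DNA methyltransferases, BH3-only apoptosis genes and iron regulatory genes. The strain names pair the sponge with actb1, an actin gene expressed in nearly all cells, and with kif5a, a kinesin gene of neurons.

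Before any comparison, single libraries stood apart from their groups. Totals ran from 20884576 to 33573243 counts over the 12 libraries, and a library detected 23780 to 24354 genes. The NMDA receptor gene GRIN1 (ENSDARG00000027828), a marker of neurons, stood between 1013 and 1243 CPM in the actb1 line, 1157 and 1365 CPM in the kif5a line and 1387 and 1649 CPM in wild type. All actb1 libraries lay below all wild type libraries, and the gene was not called (-0.43 ± 0.10, edgeR adjusted p = 0.083). GRIN1 alone does not describe neurons at large. The 68 tested genes of glutamatergic neurons and receptors were split, with 26 positive, 42 negative and a median log2 change of -0.07. Protein genes of the mitochondrial genome took 2.24% of the counts in actb1 sponge 3 and 9.37% to 14.0% in the other 11 libraries. The median SD of log2(CPM + 0.5) within a group was 0.27 in the actb1 line, 0.17 in wild type and 0.16 in the kif5a line. Precursor genes of miR-29 had too few counts to be tested, so miR-29 itself was not measured, and the sponge transcript was not analysed here. The endogenous actb1 gene spanned 869 to 1427 CPM in wild type, against 904 to 1372 CPM in the actb1 line, and the groups overlapped.

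Marker lists located these departures. For each list, the mean log2 level of its tested genes was taken in every library relative to the mean of the wild type libraries. Rod and cone photoreceptor genes (43 tested) stood at 3.47, 2.87, 3.73 and -0.52 in actb1 sponge 1 to 4, and between -0.33 and 0.62 in wild type. In kif5a sponge 1 to 4 these genes stood at 0.08, 3.39, 3.48 and 0.60. Their summed level was 504 to 555 CPM in wild type, against 576 to 1255 CPM in the actb1 line. The rod arrestin gene saga had 33.9, 24.1 and 57.2 CPM in actb1 sponge 1 to 3 and was listed at 0 in actb1 sponge 4 and in wild type 2. Genes of the pineal, the light-sensing gland at the roof of the brain, followed the same split, with list means of 1.96, 1.57, 2.12 and 0.38. The pineal means in kif5a sponge 1 to 4 were 0.19, 2.10, 2.07 and 0.05. The melatonin synthesis gene ASMT gave 35.7, 19.5, 59.1 and 0.888 CPM in actb1 sponge 1 to 4. Actb1 sponge 4 was instead highest in pituitary hormone genes, with growth hormone (gh1) at 213 CPM, against 0 to 7.58 CPM in wild type. The pituitary list means were 0.20, 1.47, 1.92 and 2.93 in actb1 sponge 1 to 4, and 2.04 in kif5a sponge 3.

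Actb1 sponge 3 was also the library lowest in Hox genes, the patterning genes that adult zebrafish keep in hindbrain and spinal cord. The mean of 23 tested Hox genes was -2.46 there and between -0.43 and 0.78 in the other 11 libraries, and HOXA3 had 6.43 CPM against 11.8 to 22.5 CPM elsewhere. Wild type was uneven in immune genes. Its libraries 2 and 4 were high and its libraries 1 and 3 low in genes of MHC class II (1.16 and 0.97 against -1.04 and -1.09), of the interferon response (0.64 and 1.14 against -0.54 and -1.24) and of microglia and macrophages (0.64 and 0.74 against -0.57 and -0.80). In bulk RNA, fewer cells of a type and less RNA per cell cannot be told apart.

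**Figure D1:**
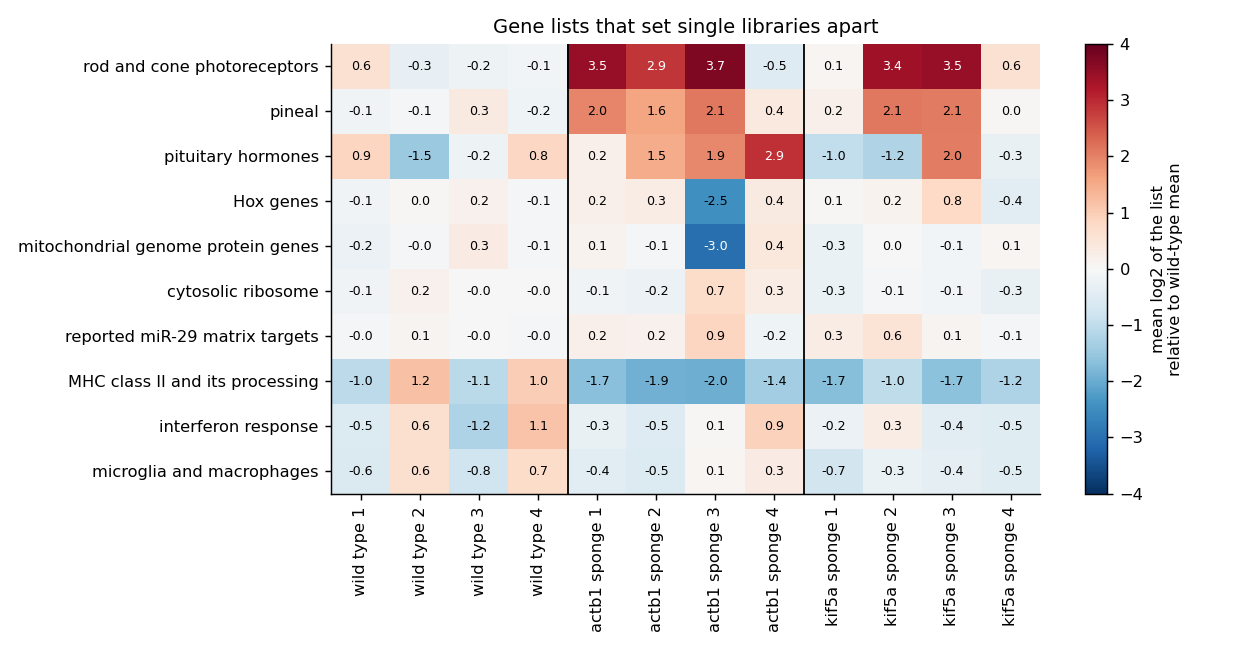
Mean log2 level of 10 gene lists (rows) in each of the 12 libraries (columns), relative to the wild type mean, with the value printed in each field and red above, blue below. Photoreceptor and pineal genes are high in actb1 sponge 1 to 3 and in kif5a sponge 2 and 3. Pituitary genes are highest in actb1 sponge 4, and Hox and mitochondrial genes are low in actb1 sponge 3.

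Against wild type, 55 genes rose and 90 fell in the actb1 line. These are genes with a Benjamini-Hochberg adjusted p under 0.05 in the quasi-likelihood test of edgeR, which is what a called gene means below. Of all genes tested, 0.28% were called higher and 0.458% lower, 0.738% in all. The median size of a called change was 1.43 on the log2 scale, 101 genes changed more than 2-fold and 34 more than 8-fold. Over all genes tested the median log2 change was -0.03, and 82.9% of genes lay within 0.5 of no change. Among called genes 34.5% had only a clone name or no symbol, against 16.6% of the genes tested.

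The called genes separated the groups almost without exception. In 143 of 145, every actb1 library lay beyond every wild type library, which held for 9.33% of all genes tested (4.08% higher and 5.25% lower). The genes were called on these same libraries, so this separation describes them and is not separate evidence. When each of the 8 libraries was omitted once (leave-one-out fits), 43 genes were called in every fit, 16 higher and 27 lower, and 8 genes were called in none. The count of higher genes was 21 without wild type 1, 36 without wild type 2, 94 without wild type 3, 28 without wild type 4, 34 without actb1 sponge 1 and 20 without actb1 sponge 2. The count of lower genes was 44 without wild type 1, 156 without wild type 3, 42 without wild type 4, 44 without actb1 sponge 1, 32 without actb1 sponge 2 and 56 without actb1 sponge 4. With the photoreceptor level of each library as a covariate, 15 genes were called higher and 27 lower. At an unadjusted p under 0.05 there were 3272 genes (16.7% of those tested).

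**Figure D2:**
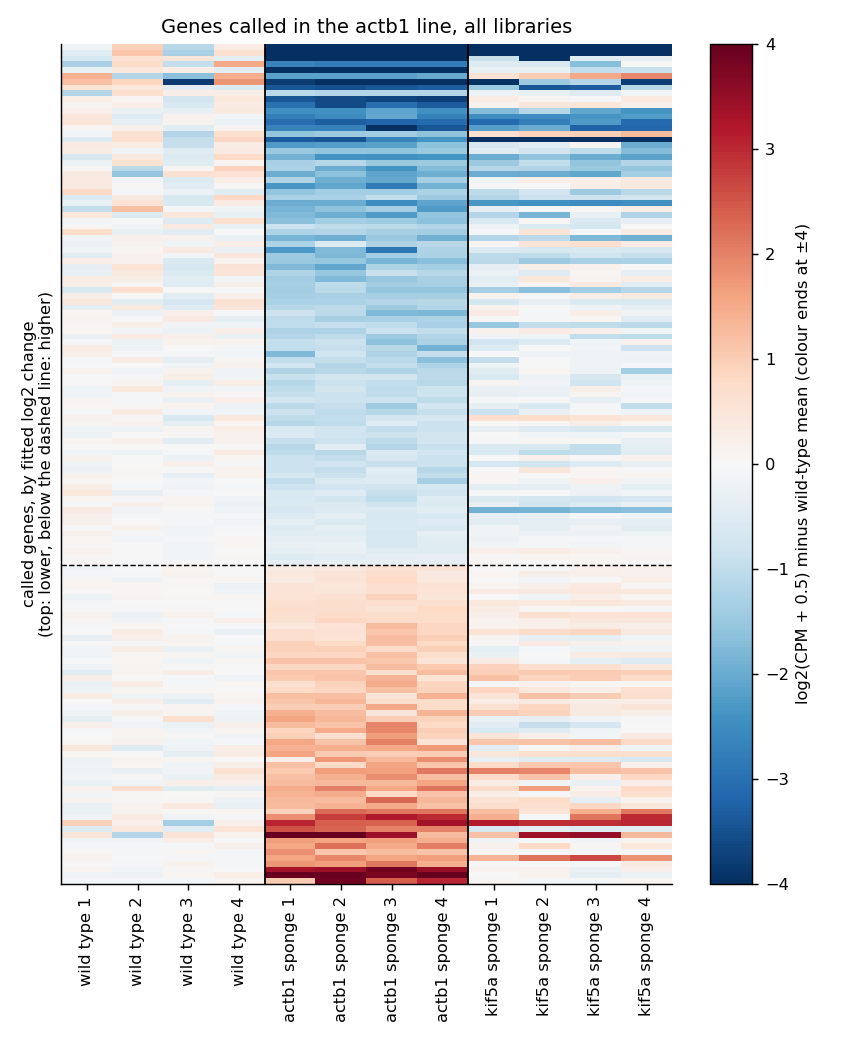
Level of the 145 called genes (rows, sorted by fitted change) in the 12 libraries (columns), as log2(CPM + 0.5) minus the wild type mean, with colours ending at ±4. The 4 actb1 libraries share the direction of change in nearly every row, and the kif5a libraries share it in some rows and sit near wild type in others.

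A first class of called genes was close to absent in 1 strain. Of the 90 lower genes, 26 had a mean under 0.5 CPM in the actb1 line, and of the 55 higher genes, 12 had a mean under 0.5 CPM in wild type. dap1b, related to the human death-associated protein gene, had 14.5, 35.6, 33.2 and 18.3 CPM in wild type 1 to 4 and 0.0998, 0, 0.0279 and 0.0807 CPM in actb1 sponge 1 to 4. In the kif5a line it had 12.7, 0, 16.9 and 17.9 CPM, so 1 library of that line resembled the actb1 line. The log2 change of dap1b in the actb1 line was -8.83 ± 1.35 (edgeR adjusted p = 0.0122). It was called in 7 of the 8 leave-one-out fits, and not with the photoreceptor covariate (edgeR adjusted p = 0.0913). The clone-named gene zgc:171679, chosen after its values were seen, had 11.7 to 21.4 CPM in wild type, 0 to 0.166 CPM in the actb1 line and 7.81 to 12.9 CPM in the kif5a line. It fell by 8.20 ± 0.54 on the log2 scale (approximate standard error derived from the test, edgeR adjusted p = 2.32e-05) and differed from the kif5a line as well (adjusted p = 2.03e-05).

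The gene of smallest p was another clone-named gene, si:dkey-240n22.6, with 10.8, 9.55, 5.30 and 12.5 CPM in wild type, against 0.399, 0.309, 0.251 and 0.202 CPM in the actb1 line. Its log2 change was -5.01 ± 0.30 (edgeR adjusted p = 1.5e-05), and it too was named after its values were seen. In the other direction, the unnamed gene ENSDARG00000100935 stood at 0.0677 to 0.284 CPM in wild type, at 8.24 to 12.8 CPM in the actb1 line and at 0 to 0.208 CPM in the kif5a line. adgrg7.1, an adhesion G protein-coupled receptor gene, gave 2 counts in the 4 wild type libraries together and 99 in the 4 actb1 libraries, a ratio of 44.1 (95% exact counting interval 11.9 to 369). That interval covers counting error only and not the spread between libraries. The fitted log2 change of adgrg7.1 was 5.15 ± 0.69. pak6b, a p21-activated kinase gene, had 0.0339 to 0.142 CPM in wild type, against 1.12 to 2.09 CPM in the actb1 line (change on the log2 scale 4.60 ± 0.61). adgrg7.1 and pak6b lie under the mean level set for named genes and were added after their values were seen. The genes zgc:171679, si:dkey-240n22.6, ENSDARG00000100935, adgrg7.1 and pak6b were called in each of the 8 leave-one-out fits.

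A second class changed in degree, without near absence in either strain, and its higher members called in every leave-one-out fit are described first. GPAA1 encodes a subunit of the enzyme that attaches GPI anchors to cell surface proteins. It had 22.0, 22.8, 22.7 and 22.6 CPM in wild type, against 35.2, 37.2, 36.6 and 35.6 CPM in the actb1 line. The spread within each group was small beside the gap, the log2 change was 0.68 ± 0.07 (edgeR adjusted p = 0.000929), and the kif5a libraries lay in between at 28.9 to 31.3 CPM. MAN2B2, a lysosomal alpha-mannosidase that trims sugar chains of glycoproteins, had 14.5, 17.3, 16.5 and 16.1 CPM in wild type, against 29.1, 29.2, 39.1 and 33.7 CPM in the actb1 line (1.02 ± 0.13, adjusted p = 0.00427). SLC35B2 carries the sulphate donor PAPS into the Golgi. Its levels were 17.7, 17.6, 18.8 and 18.2 CPM in wild type, 29.4, 29.6, 26.5 and 31.7 CPM in the actb1 line and 17.5 to 22.3 CPM in the kif5a line, and it rose by 0.70 ± 0.10 (adjusted p = 0.0073).

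SBDS, which helps to release mature large ribosomal subunits, went from 23.2 to 25.8 CPM in wild type to 34.7 to 40.3 CPM in the actb1 line (0.57 ± 0.08, edgeR adjusted p = 0.00597). PRKAR2A (ENSDARG00000009477) encodes a regulatory subunit that holds protein kinase A inactive until cyclic AMP binds. It had 4.92, 2.30, 2.97 and 4.36 CPM in wild type, 10.01, 10.5, 10.9 and 12.4 CPM in the actb1 line and 2.39 to 4.20 CPM in the kif5a line, so the actb1 libraries stood above all 8 others. Of 21 tested genes for subunits and anchors of protein kinase A it was the 1 called, against 0.28% of all genes called higher. The median of the list was -0.04. serpinb14, a protease inhibitor gene of the serpin family, rose from 7.90 to 13.4 CPM in wild type to 17.0 to 25.7 CPM (1.05 ± 0.16, adjusted p = 0.0128), and reached 21.0 to 22.8 CPM in the kif5a line.

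Motile cilia genes gave 2 called members of 65 tested, both higher and both called in all 8 leave-one-out fits. Of all genes tested, 0.28% were called higher. RSPH4A, a radial spoke gene of the ciliary axoneme, had 3.95, 4.13, 4.46 and 3.88 CPM in wild type, against 8.65, 8.69, 12.6 and 7.10 CPM in the actb1 line (1.17 ± 0.19, edgeR adjusted p = 0.0136). spef2, needed for the central apparatus of motile cilia and sperm tails, went from 8.90 to 11.9 CPM to 14.7 to 26.0 CPM (1.08 ± 0.17, adjusted p = 0.0141). The list as a whole was split, with 34 positive and 31 negative members and a median of 0.03. In both genes the lowest actb1 library was sponge 4 and the highest sponge 3, as in the list of photoreceptor genes. In kif5a sponge 1 to 4 that list stood at 0.08, 3.39, 3.48 and 0.60. There RSPH4A had 6.56, 7.89, 5.38 and 6.14 CPM and spef2 had 22.8, 18.2, 19.8 and 16.6 CPM, so neither kept the order of the list. With the photoreceptor covariate, GPAA1, MAN2B2, SLC35B2 and serpinb14 were still called, while SBDS (edgeR adjusted p = 0.0661), PRKAR2A (0.0732), RSPH4A (0.140) and spef2 (0.144) were not. The log2 changes of these last genes were 0.54, 1.47, 0.97 and 0.86 with the covariate, against 0.57, 1.59, 1.17 and 1.08 without it. The covariate is high in actb1 sponge 1 to 3 and low in all wild type libraries, so this fit separates it poorly from strain. Beyond this fit, the part of photoreceptor genes in these results was not tested.

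**Figure D3:**
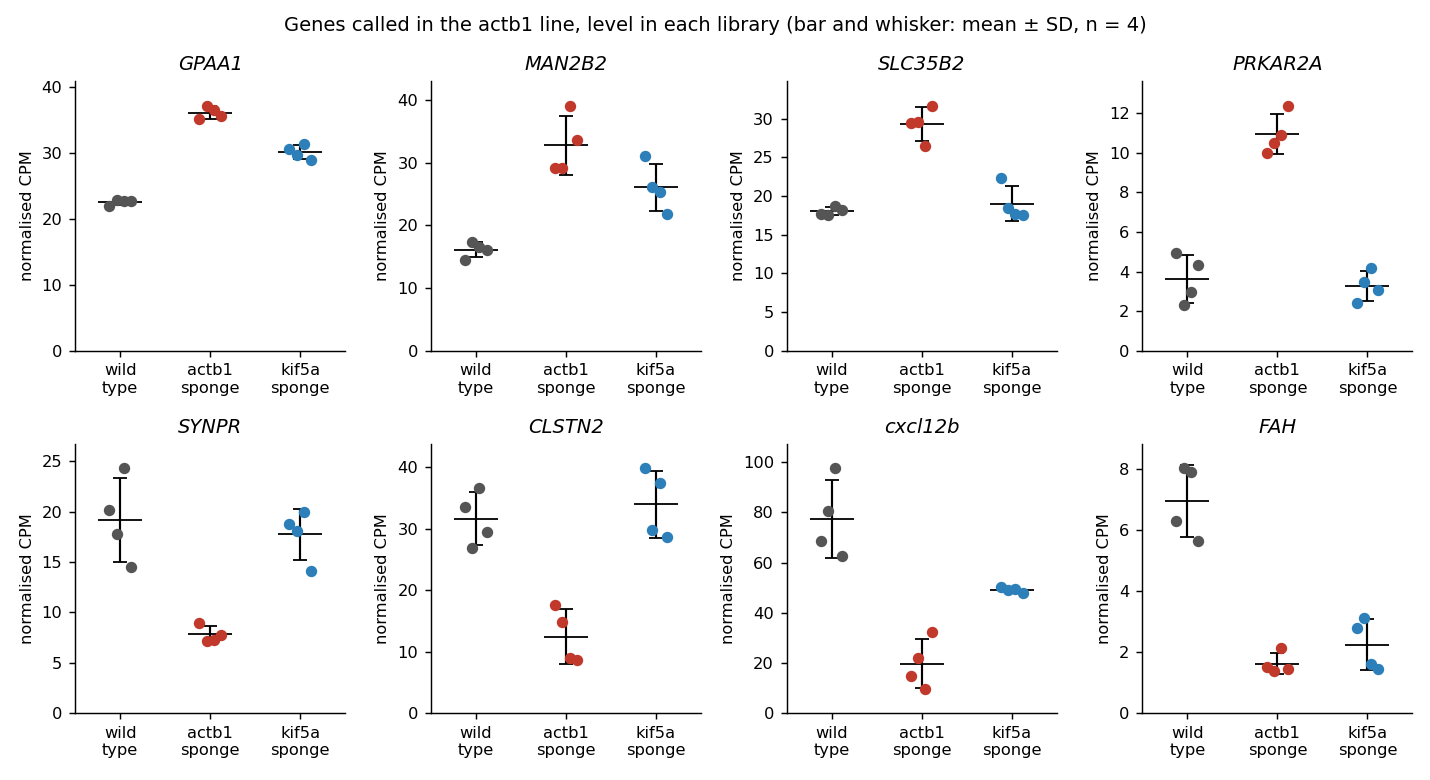
Normalised CPM of 8 called genes in every library, with a panel for each gene, points for libraries and a bar with whiskers for the mean ± SD of 4. The 4 actb1 libraries lie outside the wild type range in each panel, and for SLC35B2, PRKAR2A, SYNPR and CLSTN2 the kif5a libraries lie at or near the wild type level.

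Among the lower genes of the second class, SYNPR encodes synaptoporin, a membrane protein of synaptic vesicles. Its levels were 20.2, 17.7, 24.3 and 14.5 CPM in wild type, against 8.98, 7.22, 7.29 and 7.79 CPM in the actb1 line, a log2 change of -1.29 ± 0.17 (edgeR adjusted p = 0.00427). Of 63 tested genes of synaptic vesicle release it was the 1 called, against 0.458% of all genes tested called lower. The list had a median of -0.02. CLSTN2 (ENSDARG00000060637), a calsyntenin of the postsynaptic membrane, had 33.5, 26.9, 36.6 and 29.5 CPM in wild type, against 17.6, 14.8, 8.94 and 8.64 CPM in the actb1 line (-1.34 ± 0.22, adjusted p = 0.0184). DLG4 (ENSDARG00000039385), the scaffold PSD-95 of excitatory synapses, moved the other way, from 58.6 to 66.8 CPM to 82.8 to 111 CPM (0.53 ± 0.11, adjusted p = 0.0465), and was called in 1 of 8 leave-one-out fits. It was the 1 called among 68 glutamatergic genes, of which 42 were negative, and 0.28% of all genes tested were called higher. By edgeR none of 49 GABAergic genes was called, with 7 at an unadjusted p under 0.05 and 0 called by DESeq2. Of these, 38 were negative, and their median was -0.18.

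The chemokine cxcl12b, a ligand that guides migrating cells, fell in all 4 libraries of the line. Its levels were 68.5, 80.5, 97.6 and 62.8 CPM in wild type, against 15.1, 22.1, 9.75 and 32.3 CPM in the actb1 line, with 47.8 to 50.4 CPM in the kif5a line. The log2 change was -1.97 ± 0.29 (edgeR adjusted p = 0.00772). Of the other 5 tested genes for CXCL12 chemokines and their receptors none was called. The receptor gene CXCR4 (ENSDARG00000057633) had 2.09 to 4.19 CPM in wild type, against 4.25 to 7.57 CPM in the actb1 line, which did not overlap (log2 change 0.88 ± 0.24, adjusted p = 0.111).

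FAH, which splits fumarylacetoacetate in the last step of tyrosine breakdown, had 6.30, 8.03, 7.89 and 5.64 CPM in wild type, against 1.53, 1.39, 2.15 and 1.45 CPM in the actb1 line (-2.09 ± 0.27, edgeR adjusted p = 0.00475). The kif5a line was also low, at 1.46 to 3.11 CPM, and the other 6 genes of phenylalanine and tyrosine breakdown were not called. hspb15, a small heat shock protein gene, went from 37.7 to 47.5 CPM in wild type to 21.7 to 23.9 CPM (-0.88 ± 0.12, adjusted p = 0.00475). The stress-inducible chaperone gene hsp70l went the opposite way, from 3.18 to 6.49 CPM to 8.88 to 19.3 CPM (1.73 ± 0.30, adjusted p = 0.0234, called in 4 of 8 leave-one-out fits), with 9.57 to 17.8 CPM in the kif5a line. These were the 2 calls among 41 heat shock genes, of which 32 were positive with a median of 0.13. Of all genes tested, 0.738% were called.

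kiz, which stabilises the centrosome in mitosis, went from 15.9 to 20.9 CPM to 9.68 to 10.7 CPM (-0.81 ± 0.11, edgeR adjusted p = 0.00536). DUSP22, a dual specificity phosphatase gene, went from 2.27 to 4.83 CPM to 0.618 to 1.13 CPM. It was the 1 called of 20 tested genes of that family, against 0.458% of all genes tested called lower. glis2a, a zinc finger transcription factor gene linked to cilia and the kidney in mammals, had 26.0, 21.3, 21.1 and 20.4 CPM in wild type, against 6.15, 12.6, 9.08 and 11.3 CPM in the actb1 line (-1.19 ± 0.18, adjusted p = 0.0128). DEF8 went from 67.4 to 81.7 CPM to 36.7 to 52.0 CPM (-0.72 ± 0.11), and the zinc finger gene znf106b from 4.65 to 8.87 CPM to 1.62 to 2.26 CPM (-1.89 ± 0.22). In each of these genes the groups did not overlap. With the photoreceptor covariate SYNPR, FAH, kiz and znf106b were still called, while cxcl12b had an edgeR adjusted p of 0.0513, hspb15 of 0.0720, CLSTN2 of 0.0771, DUSP22 of 0.0832, and DEF8 and glis2a of 0.117. In that order, the log2 changes of these last genes with the covariate were -1.63, -0.81, -1.51, -1.83, -0.59 and -1.06.

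Immune genes supplied losses in multigene families, where reads from near-identical copies cannot be assigned with certainty. The MHC class II genes mhc2dgb and mhc2dga had 2085 and 1455 counts over the 4 wild type libraries, with 1 and 2 counts over the 4 actb1 libraries and 0 in the kif5a line. The wild type to actb1 ratios were 2343 (95% exact counting interval 420.0 to 92577) for mhc2dgb and 817 (226 to 6756) for mhc2dga, and the intervals cover counting error only. mhc2dgb had 15.4, 34.2, 7.82 and 21.7 CPM in wild type 1 to 4, highest in the libraries rich in immune genes, and all 4 were far above the actb1 line. Another class II gene, mhc2d4b, went from 5.03 to 12.6 CPM in wild type to 1.58 to 3.24 CPM in the actb1 line, and stood at 6.43 to 9.93 CPM in the kif5a line. It was called in 4 of 8 leave-one-out fits, and not with the photoreceptor covariate (edgeR adjusted p = 0.137) or with only the 8 libraries (0.0702). With the covariate mhc2dga was not called either (0.0913), while mhc2dgb was (0.0279). The other 7 tested genes of the class II list were not called. Of 41 finTRIM genes, a fish family of antiviral type TRIM proteins, 3 were called lower, against 0.458% of all genes tested. They were ftr12 (-3.09 ± 0.40), ftr76 (-2.26 ± 0.37) and ftr90 (-1.77 ± 0.25), with edgeR adjusted p of 0.00475, 0.0169 and 0.00676. ftr12 had 2.94, 6.54, 3.24 and 8.998 CPM in wild type, highest in the 2 libraries rich in immune genes, and 0.503 to 0.965 CPM in the actb1 line. ftr90 had 6.93, 6.57, 4.00 and 5.07 CPM in wild type, against 1.27 to 1.94 CPM in the actb1 line, an order that does not follow the immune lists. By edgeR no gene was called in the lists of the interferon response (26 tested, 7 at an unadjusted p under 0.05, 2 called by DESeq2), MHC class I (25 tested, 13 and 5) or microglia and macrophages (34 tested, 3 and 2). The same held for lymphocytes and neutrophils (21 tested, 0 and 0). The MHC class I list moved both ways, with 8 positive and 17 negative members and log2 changes from -3.83 to 3.58. In 4 of its members all actb1 libraries lay above all wild type libraries, and in 0 below, against 4.08% and 5.25% of all genes tested. The part of the uneven wild type libraries in the immune losses was not tested.

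The neighbouring lectin genes hbl1 and hbl2, which encode mannose-binding type lectins that can start the complement cascade, were higher. hbl2 had 1.45, 2.27, 1.45 and 1.52 CPM in wild type, 7.05, 14.2, 19.3 and 16.7 CPM in the actb1 line and 5.37, 1.56, 8.95 and 16.5 CPM in the kif5a line. hbl1 followed at lower counts, from 0.186 to 0.406 CPM to 1.06 to 3.44 CPM. Their log2 changes were 3.09 ± 0.57 and 3.01 ± 0.50 (edgeR adjusted p = 0.0304 and 0.0194), called in 1 and 5 of the 8 leave-one-out fits. tnfrsf1b, a receptor for tumour necrosis factor, had 2.09, 11.3, 4.50 and 4.12 CPM in wild type, against 0.565 to 1.56 CPM in the actb1 line (-2.36 ± 0.47, adjusted p = 0.0421, called in 2 of 8 fits).

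Other large changes were not called in every leave-one-out fit. Among higher genes, slc13a5b, a citrate transporter gene called in 2 of 8, went from 0.426 to 0.708 CPM to 2.09 to 4.92 CPM. The polycystin family gene pkd1l2b (ENSDARG00000101214) went from 0.410 to 0.762 CPM to 2.13 to 2.79 CPM and was called in 7 fits. ABCA12, a lipid transporter known from the skin barrier, went from 0.762 to 2.34 CPM to 4.46 to 7.27 CPM, and the sugar transporter family gene slc2a11b from 0.522 to 0.852 CPM to 1.51 to 2.91 CPM.

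pdha1b, an alpha subunit of pyruvate dehydrogenase, went from 0.457 to 0.995 CPM to 1.90 to 3.13 CPM. cox7a1, a cytochrome oxidase subunit of muscle in mammals, had 1.45 to 1.94 CPM in wild type, against 2.13, 7.07, 5.08 and 7.67 CPM in the actb1 line. It was called in 1 fit of 8. The skeletal muscle list stood at -0.35, 0.83, 0.53 and 0.31 in the same 4 libraries, and between -0.53 and 0.65 in wild type. Both cox7a1 and the list were lowest in actb1 sponge 1, but cox7a1 was highest in sponge 4 and the list was not. The part of muscle in the change of cox7a1 was not tested. CCDC134 (ENSDARG00000103285) had 0 to 2.01 CPM in wild type, 6.15 to 12.6 CPM in the actb1 line and 9.45 to 11.2 CPM in the kif5a line. PDE6G, the inhibitory phosphodiesterase subunit of rods, had 47.0, 39.3, 23.1 and 4.84 CPM in actb1 sponge 1 to 4. Like the photoreceptor list it was lowest in sponge 4, but unlike the list it was not highest in sponge 3. Its log2 change went from 3.90 ± 0.80 to 1.85 with the photoreceptor covariate. PDE6G is among the genes whose mean makes that covariate, so this fall is no separate evidence.

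Among lower genes with such changes, RRM2 (ENSDARG00000078069), the small subunit of ribonucleotide reductase, had 2.65, 0.948, 2.74 and 5.26 CPM in wild type, against 0.0838 to 0.765 CPM in the actb1 line. TEN1, a telomere capping subunit, went from 3.93 to 8.35 CPM to 0.866 to 1.70 CPM (-2.30 ± 0.40, edgeR adjusted p = 0.0216, called in 4 fits). blm, a RecQ helicase gene, and POLQ, a DNA polymerase of end joining, were also lower (-1.15 ± 0.21 and -1.46 ± 0.28, called in 1 and 2 fits), and were named after their values were seen. RRM2 was the 1 called gene of 38 in the list of neurogenesis and proliferation, beside 0.458% called lower of all genes tested. The median of that list was -0.03. cyp2p7, a cytochrome P450 gene, went from 7.28 to 11.9 CPM to 0 to 1.16 CPM.

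Further called genes were named after their values were seen, and in the leave-one-out fits NCAN was called in 3 of 8, TGFBI in 1, GTF2F2 in 5 and nepro in 6. NCAN, the brain proteoglycan neurocan, had 51.9, 36.8, 42.7 and 39.9 CPM in wild type, against 21.0, 22.2, 19.3 and 11.1 CPM in the actb1 line (-1.22 ± 0.23, edgeR adjusted p = 0.0310), and with the photoreceptor covariate its log2 change was -1.75. TGFBI, a matrix protein that binds integrins and collagen, went from 20.0 to 26.0 CPM to 10.4 to 17.2 CPM (-0.86 ± 0.17). GTF2F2 (ENSDARG00000069910), a subunit of the general transcription factor TFIIF, went from 31.0 to 49.0 CPM to 20.3 to 24.9 CPM. nepro, a nucleolar gene needed for neural progenitors in mice, had 5.30 to 6.30 CPM in wild type, against 10.9, 17.2, 23.6 and 12.0 CPM in the actb1 line.

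Reported targets of miR-29 gave 1 called gene among the 39 matrix targets and 45 other targets tested. Of all genes tested, 0.738% were called, and 0.28% were called higher. LPL (ENSDARG00000087697), which encodes lipoprotein lipase, had 46.7, 48.5, 40.5 and 47.5 CPM in wild type, 102, 101, 96.3 and 65.9 CPM in the actb1 line and 31.6 to 57.6 CPM in the kif5a line. It rose by 0.995 ± 0.18 on the log2 scale (edgeR adjusted p = 0.0304) and was called in 1 of the 8 leave-one-out fits. With the photoreceptor covariate LPL was not called, with a log2 change of 0.895 (edgeR adjusted p = 0.205). Of 39 extracellular matrix targets none was called by edgeR, with 9 at an unadjusted p under 0.05 and 3 called by DESeq2. Of these genes 30 were positive with a median of 0.24, against 46.1% positive and a median of -0.03 over all genes tested. Over actb1 sponge 1 to 4 the matrix list had levels of 0.20, 0.16, 0.86 and -0.18, and without actb1 sponge 3 its median was -0.01. That value is near no change and above the median of all genes tested. With the photoreceptor covariate, which is poorly separated from strain, the median was -0.07. In 5 of the 39 genes all actb1 libraries lay above all wild type libraries, and in 0 below. Over all genes tested these shares were 4.08% and 5.25%. The median change of the list from wild type in the kif5a line was 0.18. LOXL3 (ENSDARG00000039563), a lysyl oxidase family gene that cross-links collagen, was the matrix target of smallest p. It had 10.4, 10.1, 12.8 and 17.4 CPM in wild type, against 22.8, 19.3, 27.8 and 19.7 CPM in the actb1 line, which did not overlap (0.83 ± 0.18, adjusted p = 0.0583).

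Of 45 other reported targets, 30 were negative and the median was -0.08. The cyclin gene CCND2 (ENSDARG00000070408) had 3.35 to 4.71 CPM in wild type, against 1.70 to 3.09 CPM in the actb1 line (-0.78 ± 0.23, edgeR adjusted p = 0.126). dnmt3ba, a de novo DNA methyltransferase gene, had 9.80 to 11.8 CPM and 6.86 to 9.69 CPM (-0.37 ± 0.14, adjusted p = 0.209). In the list of DNA methylation and demethylation, 18 of 20 genes were negative with a median of -0.11. In the BCL2 family and apoptosis list, 22 of 34 were negative with a median of -0.10. Neither list held a gene called by edgeR, with 2 and 8 members at an unadjusted p under 0.05 and 0 and 3 called by DESeq2. Of 25 iron genes 1 was called, SLC40A1, the iron exporter ferroportin, and of all genes tested 0.458% were called lower. SLC40A1 had 78.6, 94.8, 89.5 and 70.7 CPM in wild type, against 55.5, 55.7, 47.0 and 56.6 CPM in the actb1 line (-0.64 ± 0.12, edgeR adjusted p = 0.0361, called in 1 of 8 fits).

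Several further lists shifted together in small steps, mostly without called members. Cholesterol synthesis showed the highest median of the 20 lists plotted, 0.50, with 27 of 30 genes positive and 14 with all actb1 libraries above all wild type libraries, against 4.08% of all genes. No member was called by edgeR, 7 had an unadjusted p under 0.05 and DESeq2 called 1. Its level was 0.38, 0.32, 0.53 and 0.39 over the 4 actb1 libraries and between -0.11 and 0.11 in wild type, so all 4 libraries lay above wild type. In the kif5a line it stood at 1.063, 0.77, 0.05 and -0.24. srebf2, the transcription factor gene that controls sterol synthesis, had 69.4 to 82.0 CPM in wild type, against 94.7, 106, 151 and 88.1 CPM in the actb1 line (0.53 ± 0.18, edgeR adjusted p = 0.184). STARD4, a cholesterol transfer protein gene, had 4.99 to 6.40 CPM and 6.95 to 18.0 CPM (0.996 ± 0.29, adjusted p = 0.129).

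Circadian clock genes showed the reverse, with 38 of 45 negative, a median of -0.28 and 12 genes with all actb1 libraries below all wild type libraries, against 5.25% of all genes. The 2 called members were the cryptochrome genes cry-dash, a light-sensing flavoprotein of fish, and cry3a, a clock repressor. Of all genes tested, 0.458% were called lower. cry-dash had 38.0, 27.7, 29.6 and 26.6 CPM in wild type, against 18.9, 20.4, 19.8 and 21.8 CPM in the actb1 line (-0.59 ± 0.12, edgeR adjusted p = 0.0465). cry3a had 346, 308, 294 and 314 CPM and 243, 256, 225 and 225 CPM (-0.41 ± 0.08, adjusted p = 0.0488). Their calls held in 0 and 1 of 8 leave-one-out fits. The labels used here give no hour of sampling, so a difference in hour between the groups cannot be told apart from the strain.

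Ribosomal protein genes were positive in 79 of 81 cases with a median of 0.24. None was called by edgeR or DESeq2, and 2 had an unadjusted p under 0.05. Their level was 0.75 in actb1 sponge 3 and -0.13, -0.23 and 0.29 in the other 3 actb1 libraries, and without sponge 3 the median was 0.03. RPL36AL showed this with 307, 272, 905 and 394 CPM, against 274 to 359 CPM in wild type. In none of the 81 did the actb1 and wild type libraries separate, against 9.33% of all genes tested. Nuclear genes of oxidative phosphorylation had 78 of 96 members positive and a median of 0.18. The 1 called gene was cox7a1, against 0.28% of all genes tested called higher. Of the 96, 18 had an unadjusted p under 0.05 and 7 were called by DESeq2. The levels of this list were 0.02, 0.04, 0.17 and 0.42 over actb1 sponge 1 to 4, and without sponge 4 the median was 0.09. Immediate early genes, which neurons switch on within minutes of activity, were negative in 37 of 44 cases with a median of -0.21 and no called member, 7 at an unadjusted p under 0.05 and 2 called by DESeq2. With the photoreceptor covariate the median was -0.10. Their gene of smallest p was FOSL1, with 1.22 to 2.89 CPM in wild type, against 0.419 to 0.848 CPM in the actb1 line (-1.58 ± 0.33, edgeR adjusted p = 0.0535).

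Single calls stood in otherwise flat lists. Of 41 antioxidant genes, msrb2, a mitochondrial methionine sulphoxide reductase gene, fell from 34.7 to 44.5 CPM to 14.7 to 23.7 CPM (-1.05 ± 0.19, edgeR adjusted p = 0.0304). Of 25 myelin genes, the tetraspanin gene tspan2b fell from 2.68 to 4.34 CPM to 1.26 to 1.66 CPM (-1.14 ± 0.23, adjusted p = 0.0465). They were called in 2 and 1 of the 8 leave-one-out fits. In all, 31 of the 51 lists held no called gene. Counts of called members in the lists stand beside 0.738% called among all genes tested.

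**Figure D4:**
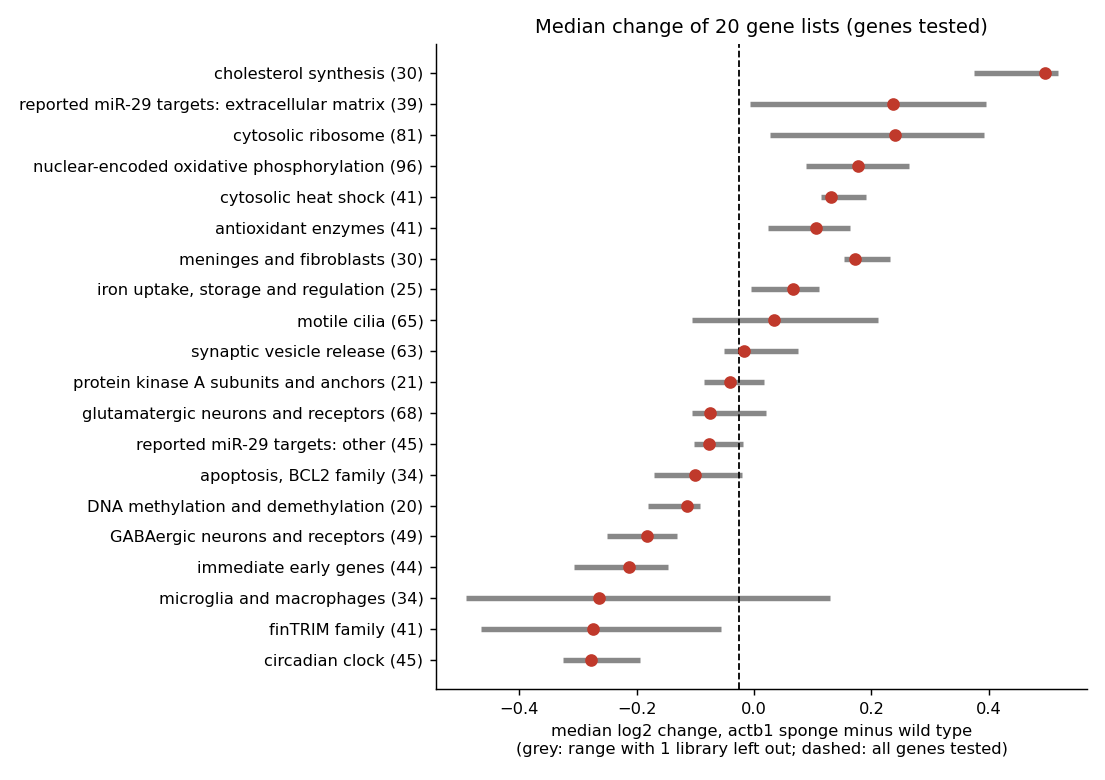
Median log2 change of 20 gene lists in the actb1 line against wild type (red points, number of genes tested in brackets), with grey bars for the range over fits with 1 library left out and a dashed line for the median of all genes tested. Of these 20 lists, cholesterol synthesis lies highest at 0.50 and the circadian clock lowest at -0.28. The bars of the matrix targets and the ribosome reach down to the dashed line or near it. Lists not plotted had larger medians, among them photoreceptors (3.73), pituitary hormones (1.81), pineal (1.33) and skeletal muscle (0.51). On the lower side these included lymphocytes and neutrophils (-0.56), MHC class II (-0.49) and MHC class I (-0.41).

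Whether a change belongs to the actb1 line or appears in both sponge lines was asked by testing the difference between the lines in the same fit. At an adjusted p under 0.05, 1.18% of genes tested differed between the lines, 126 higher (0.641%) and 106 lower (0.54%) in the actb1 line. The total was 232, falling to 120 when actb1 sponge 1 was omitted and to 152 for actb1 sponge 2. Among the 145 called genes, 60 differed between the lines, 22 of the higher and 38 of the lower. Both tests use the 4 actb1 libraries, so this count is a description and not separate evidence. Higher genes that differed included PRKAR2A (difference 1.74 ± 0.24, edgeR adjusted p = 0.0051), SLC35B2 (0.62 ± 0.10, adjusted p = 0.0105) and LPL (1.12 ± 0.18, adjusted p = 0.0125). Lower genes that differed included ftr90 (-1.89 ± 0.25), SYNPR (-1.18 ± 0.16), CLSTN2 (-1.44 ± 0.22), glis2a (-1.04 ± 0.18) and cxcl12b (-1.31 ± 0.28), with adjusted p from 0.0039 to 0.0455.

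Other genes gave no detectable difference between the lines. For serpinb14 the difference was 0.04 ± 0.16, for DEF8 -0.03 ± 0.11, for hsp70l 0.03 ± 0.29, for spef2 0.12 ± 0.17 and for CCDC134 -0.20 ± 0.53, with adjusted p from 0.761 to 0.975. For GPAA1 it was 0.26 ± 0.07 (edgeR adjusted p = 0.0976), with no overlap between the actb1 libraries at 35.2 to 37.2 CPM and the kif5a libraries at 28.9 to 31.3 CPM. Among clock genes, cry-dash was lower in the kif5a line, at 7.86 to 9.22 CPM, than in the actb1 line (difference 1.26 ± 0.12), and ciarta, a clock repressor gene, had 27.5 to 34.4 CPM in the actb1 line and 5.95 to 8.26 CPM in the kif5a line (2.02 ± 0.13). Of 45 clock genes, 18 differed between the lines, against 1.18% of all genes tested. The median change of the list from wild type was -0.28 for actb1 fish and -0.25 for kif5a fish. cry3a stood at 328 to 386 CPM in the kif5a line and lower in the actb1 line (-0.59 ± 0.08).

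The share of called genes was highest on chromosome 4, where most of them lay in 1 run of neighbouring genes. A chromosome could be given to 14108 tested genes, 96 of them called (0.680%), from a gene table of a later assembly matched by symbol. On chromosome 4, 11 of 496 genes were lower and none higher, 2.22% in all, and the other chromosomes ranged from 0% to 1.31%. A run of 11 neighbouring tested genes on chromosome 4 held 8 of those 11, all lower, and all 8 also differed between the lines. It began with si:ch73-389k6.1, at 4.35 to 8.71 CPM in wild type, 0.116 to 0.432 CPM in the actb1 line and 7.66 to 9.85 CPM in the kif5a line (log2 change -4.50 ± 0.34). It went on through zgc:171673 (-2.55 ± 0.25), mhc2d4b (-1.85 ± 0.32), zgc:113209 (-0.89 ± 0.12), zgc:172128 (-0.95 ± 0.17), zgc:113119 (-1.18 ± 0.17) and zgc:153116 (-0.86 ± 0.17). It ended with ms4a17a.16 (-2.74 ± 0.50), a gene of the MS4A membrane protein family. In the 8 leave-one-out fits, si:ch73-389k6.1, zgc:171673, zgc:113209 and zgc:113119 were called every time. The calls of mhc2d4b held in 4 fits, of ms4a17a.16 in 3, and of zgc:172128 and zgc:153116 in 2 each. The clone-named members were chosen after their values were seen, and reads shared between similar neighbours may be split among them.

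**Figure D5:**
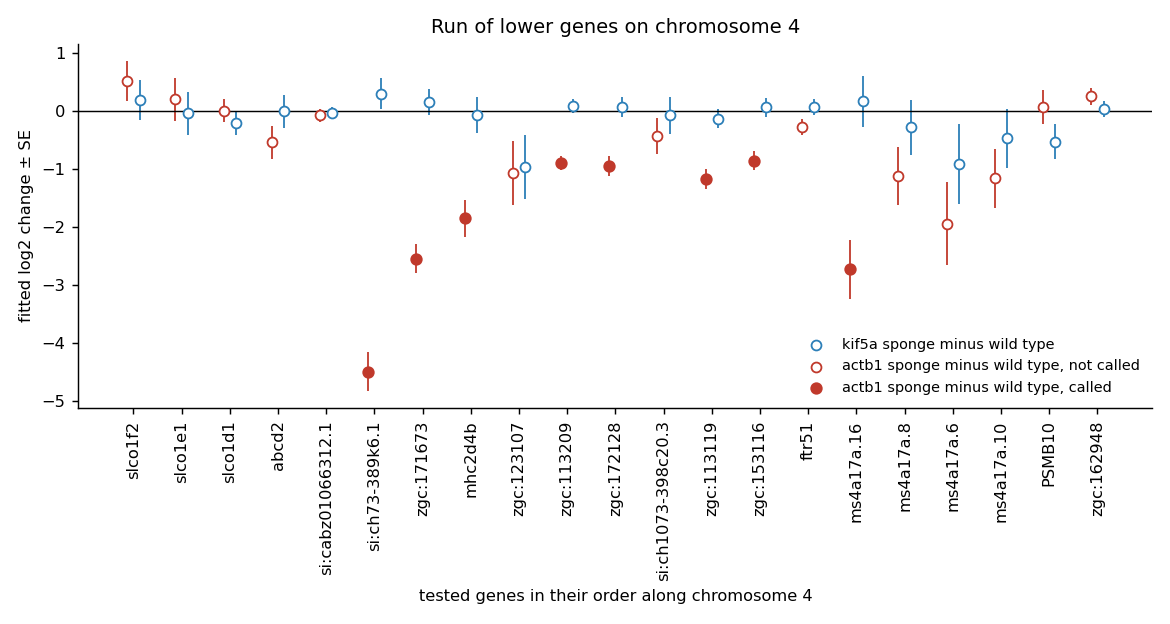
Fitted log2 change ± SE against wild type for 21 tested genes in their order along chromosome 4, in the actb1 line (red, filled where called) and the kif5a line (blue). The 8 called genes lie between -0.86 and -4.50 in the actb1 line, while their values in the kif5a line lie between -0.13 and 0.30.

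Counting that run, 16 pairs of consecutive called genes lay within 10 tested genes of each other, 13 of them in the same direction. More of these pairs came from that run than from any other place. Called genes made up 0.680% of the genes given a chromosome. How many pairs that share alone would give was not worked out, so the count is a description. On chromosome 22, glis2a and cxcl12b fell and adgrg7.1 rose, with 4 and 7 tested genes between them. A second group on chromosome 22 held si:dkey-286j15.1, si:dkey-169i5.4 and zgc:171679, all lower. The pairs mhc2dga and mhc2dgb on chromosome 8 and hbl2 and hbl1 on chromosome 2 were adjacent.

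At the threshold itself, the genes on either side were alike. Just inside were nxf1b, an mRNA export factor gene (log2 change -0.42 ± 0.09), PDE6G, ABCA12 and cry3a, with edgeR adjusted p of 0.0488 to 0.0490. Just outside were SOAT1, which stores cholesterol as ester (-1.12 ± 0.23), the meiotic helicase gene HFM1 (-1.06 ± 0.22) and TTLL1, which adds glutamate chains to tubulin (-0.58 ± 0.12), with adjusted p of 0.05003 to 0.0503. TTLL1 had 28.5 to 31.4 CPM in wild type, 16.6 to 23.1 CPM in the actb1 line and 33.3 to 42.7 CPM in the kif5a line, and it did differ between the lines (-0.87 ± 0.12, adjusted p = 0.0051).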

How the data were processed

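RNA-seq libraries of zebrafish brain were made from total RNA with a TruSeq v2 kit, per the labels' protocols, and this kit does not mark strand, so overlapping and antisense genes cannot be told apart. The submitters' processing notes name the build GRCz10 and the tools featureCounts 1.4.6-p4, STAR 2.4.1d and bcl2fastq 1.8.4. The authors deposited read counts per gene, which were used as deposited, and RPKM values, which were not used here. Genes above 0.5 CPM in at least 4 of 12 libraries were fitted together in edgeR 4.0.16 (R 4.3.3, TMM scaling, quasi-likelihood test), with a contrast for each pair of strains and Benjamini-Hochberg adjustment over all genes tested at 0.05. The fit was tested on simulated data. Alternatives used DESeq2 1.42.0, limma 3.58.1, other filters and scalings, a photoreceptor covariate and each of the 8 libraries left out. Levels are CPM on the TMM scale. Errors are approximate standard errors, the absolute log2 change divided by the square root of the F statistic of the quasi-likelihood test.

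Named genes were those with a symbol, a mean of at least 1 CPM and a call in all 8 fits with a library left out, the called genes of largest change, up to 4 members of smallest p in each list described, the construct's namesakes, and genes next to the threshold. Exceptions are stated where they stand, and some genes that the rule names are not reported here. The comparison and the 51 gene lists were chosen with earlier results of these data known. Chromosomes came from a RefSeq gene table of GRCz12tu, matched by symbol for 14108 tested genes. Start positions in that table were used only to order the genes along each chromosome. Depth ran from 20884576 to 33573243 counts, so genes of a few counts carry the widest errors.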

Additional observations from a re-analysis of the deposited data

Results flagged for a closer look

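In 30 genes named above, and in the clock gene CRY2, the actb1 and kif5a lines differed by edgeR's quasi-likelihood test of the difference itself at an adjusted p under 0.05. The log2 difference, actb1 minus kif5a, was positive for ENSDARG00000100935 (6.47), adgrg7.1 (6.03), pak6b (2.67), cox7a1 (2.29), ciarta (2.02), pkd1l2b (1.85), nepro (1.77), PRKAR2A (1.74), LOXL3 (1.28), cry-dash (1.26), LPL (1.12), SLC35B2 (0.62), CRY2 (0.54) and DLG4 (0.49). It was negative for zgc:171679 (-7.54), dap1b (-7.73), si:dkey-240n22.6 (-5.17), si:ch73-389k6.1 (-4.80), ms4a17a.16 (-2.91), ftr76 (-2.41), tnfrsf1b (-2.13), ftr90 (-1.89), mhc2d4b (-1.79), CLSTN2 (-1.44) and cxcl12b (-1.31). It was also negative for SYNPR (-1.18), glis2a (-1.04), TGFBI (-0.996), TTLL1 (-0.87), GTF2F2 (-0.84) and cry3a (-0.59). LOXL3, CRY2, ciarta and TTLL1 were not called against wild type. Of the other clone-named genes described on chromosomes 4 and 22, all but si:dkey-286j15.1 also differed between the lines: zgc:171673 (-2.71), zgc:113209 (-0.98), zgc:172128 (-1.02), zgc:113119 (-1.05), zgc:153116 (-0.92) and si:dkey-169i5.4 (-8.60).

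Single libraries met Dixon's criterion for distance from the other 3 of their group in 16 cases, which chance does in about 1 in 20 groups. The number of groups examined was not counted here, so the 16 cases cannot be set against that rate. In the actb1 line, sponge 1 was highest for mhc2dgb (0.0333 CPM), mhc2dga (0.0665 CPM), ftr12 (0.965 CPM) and pdha1b (3.13 CPM), and lowest for hbl1 (1.064 CPM). For mhc2dgb and mhc2dga these are 1 and 2 reads beside 3 libraries at 0, where any read meets the criterion, so they do not set the library apart. Sponge 3 was highest for slc13a5b (4.92 CPM) and lowest for SLC40A1 (47.0 CPM). Sponge 4 was highest for pkd1l2b (2.79 CPM) and lowest for LPL (65.9 CPM). In wild type, library 1 was highest for glis2a (26.0 CPM). Library 2 was highest for hbl2 (2.27 CPM) and tspan2b (4.34 CPM) and lowest for DLG4 (58.6 CPM). Library 3 was lowest for GTF2F2 (31.0 CPM). Library 4 was highest for hsp70l (6.49 CPM) and pak6b (0.142 CPM).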

How the results depend on the processing

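Counts of called genes moved more than directions did. With DESeq2, 449 genes were higher, 485 lower and 950 different between the lines. With limma-voom 36 were higher and 55 lower, with only the 8 libraries in the fit 35 and 46, and with the photoreceptor covariate 15 and 27. The cause was not tested, except that the 8-library fit holds fewer samples. Leaving out 1 library gave 20 to 94 higher genes, 32 to 156 lower genes, 120 to 250 genes different between the lines and 2247 to 3161 genes without overlap (1832 with all libraries; 3161 without actb1 sponge 4 and 3019 without wild type 3, where fewer libraries have to separate). DESeq2 size factors in edgeR, no filter and a filter at 2 CPM kept every count within 1.5 times. In alternatives chosen after seeing the data, library sizes without mitochondrial genes gave 55 higher and 93 lower, and keeping only actb1 sponge 4 of its line gave 391 higher, 831 lower and 1752 different between the lines, with the lone library assumed to vary like the other groups. Of 83 genes named, 39 lost their call with the covariate, 25 with the 8 libraries, 22 with limma-voom and 0 with DESeq2. The 83 include genes not called in the main fit, which had no call to lose, so the share lost among called genes is larger. Signs turned for actb1 (-0.0528 to 0.23 with 1 library left out, negative without wild type 1, wild type 3 or actb1 sponge 4) and for HOXA3 (-0.39 to 0.0257, positive without actb1 sponge 3), neither called. No paired analysis was possible because the replicate numbers follow accession order and pair nothing. Depth limits genes near 0 counts, and fitted changes of such genes depend on few reads: zgc:171679 had 5, 0, 0 and 1 counts and dap1b 3, 0, 1 and 2 counts in the actb1 line.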
